A study of Mus musculus with 36 samples.

Results

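The second wild-type (WT) set of the study is 6 of its 36 RNA sequencing libraries, the replicates labelled D, E and F taken at day +8 of adipogenic differentiation and at day -2 from WT mouse embryonic fibroblasts (MEFs). Members were picked by label, 3 libraries at day +8 and 3 at day -2. The study set MEFs lacking Mfn1 (Mfn1-/-) or Mfn2 (Mfn2-/-) against WT MEFs and deposited 2 WT sets, of which libraries D to F have no day between the start and the end. Every one of these libraries is genetically WT for both mitofusins, the GTPases that fuse outer mitochondrial membranes, and all come from 1 established cell line bought from a cell bank. Day -2 cells had grown to confluence and had met no inducing agent. Day +8 cells had received D-pantothenic acid, biotin, rosiglitazone, 3-isobutyl-1-methylxanthine, dexamethasone and insulin at day 0 and, afterwards, the same mixture without 3-isobutyl-1-methylxanthine and dexamethasone. The labels call the replicates biologically independent but do not say how they were separated, so p values measure the spread between libraries of 1 cell line. Day, cocktail, medium changes and time after confluence change together between the groups and cannot be told apart.

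Fibroblasts that commit to the fat lineage pass through an ordered cascade. Early C/EBP factors, induced by glucocorticoid and cyclic AMP, switch on Pparg and Cebpa, and those factors hold each other on and turn on the genes of lipid uptake, storage and release. Rosiglitazone is a ligand of the Pparg protein, insulin drives glucose uptake and lipid synthesis, and maturing adipocytes leave the cell cycle and rebuild their extracellular matrix.

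Depth was even across the set, with 9277873 to 11030836 reads per library and 14356 to 14599 genes with at least 1 read. Levels below are normalised counts, the reads of a gene scaled to a common depth by the trimmed mean of M values (TMM) across the 6 libraries, given per library in the order D, E and F or as mean ± SD (n = 3 each), and a signed value after the levels of both days is the log2 fold change. The first principal component held 90% of the variance and separated the days, and the second, with 3.05%, set day +8 library F apart from D and E. Replicates differed from each other by more than counting error, with a chi-square per gene of 1.87, 6.68 and 9.23 for the day +8 pairs D-E, D-F and E-F, and of 1.42, 2.80 and 2.53 for the same pairs at day -2. Fibroblast genes stood high at both days, with means of 17353 at day +8 and 29541 at day -2 for Vim, an intermediate filament protein, and of 98138 and 62108 for Col1a1. Of 15 fibroblast markers tested, 9 rose and 5 fell, against 26.3% and 27.2% of all genes tested. The 4 endothelial markers measured summed to 82.3 to 121 at day +8 and 85.1 to 100.4 at day -2, mostly from Egfl7. Egfl7 had 283 reads at day +8 and 254 at day -2, while Kdr, the endothelial VEGF receptor, had 3 reads at each day. The 11 markers of mesothelium and simple epithelium summed to 284 to 373 at day +8 and 1406 to 1485 at day -2, mostly from mesothelin (Msln). They did not move together, with 2 rises and 3 falls among the 5 tested, against the same shares of all genes. Epcam had 10 reads at day +8 and 49 at day -2, while Upk1b had 80 and 2 and Krt7 had 60 and 21. In bulk RNA, a larger share of cells of a type and more RNA per cell cannot be told apart, and the share of MEFs that became adipocytes was not measured in these libraries.

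Most tested genes differed between the days. Of 12785 genes tested with limma on log2(normalised count + 1), 6845 (53.5%) passed at a Benjamini-Hochberg adjusted p under 0.01, of which 3365 (26.3%) rose and 3480 (27.2%) fell at day +8 relative to day -2. Changes of at least 2-fold were fewer and leaned upwards, with 1964 genes (15.4%), 1408 of them (11.0%) higher and 556 (4.35%) lower at day +8. The share of rises among these 2-fold changes was 71.7%, and 56.2% (1079 higher, 841 lower) after quantile normalisation. The median log2 fold change over all tested genes was 0.0032, a value near 0 that TMM scaling itself favours. It was 0.0723 on the deposited scale and -0.0916 after quantile normalisation, so list medians as close to 0 as these depend on the scaling. Counts of list members that rose or fell, given below, are to be read against the 26.3% and 27.2% of all genes. A gene could enter the test through 1 day alone, where it is high, which favours a call in that direction. When each library was left out in turn, 5831 to 7108 genes passed.

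**Figure D1:**
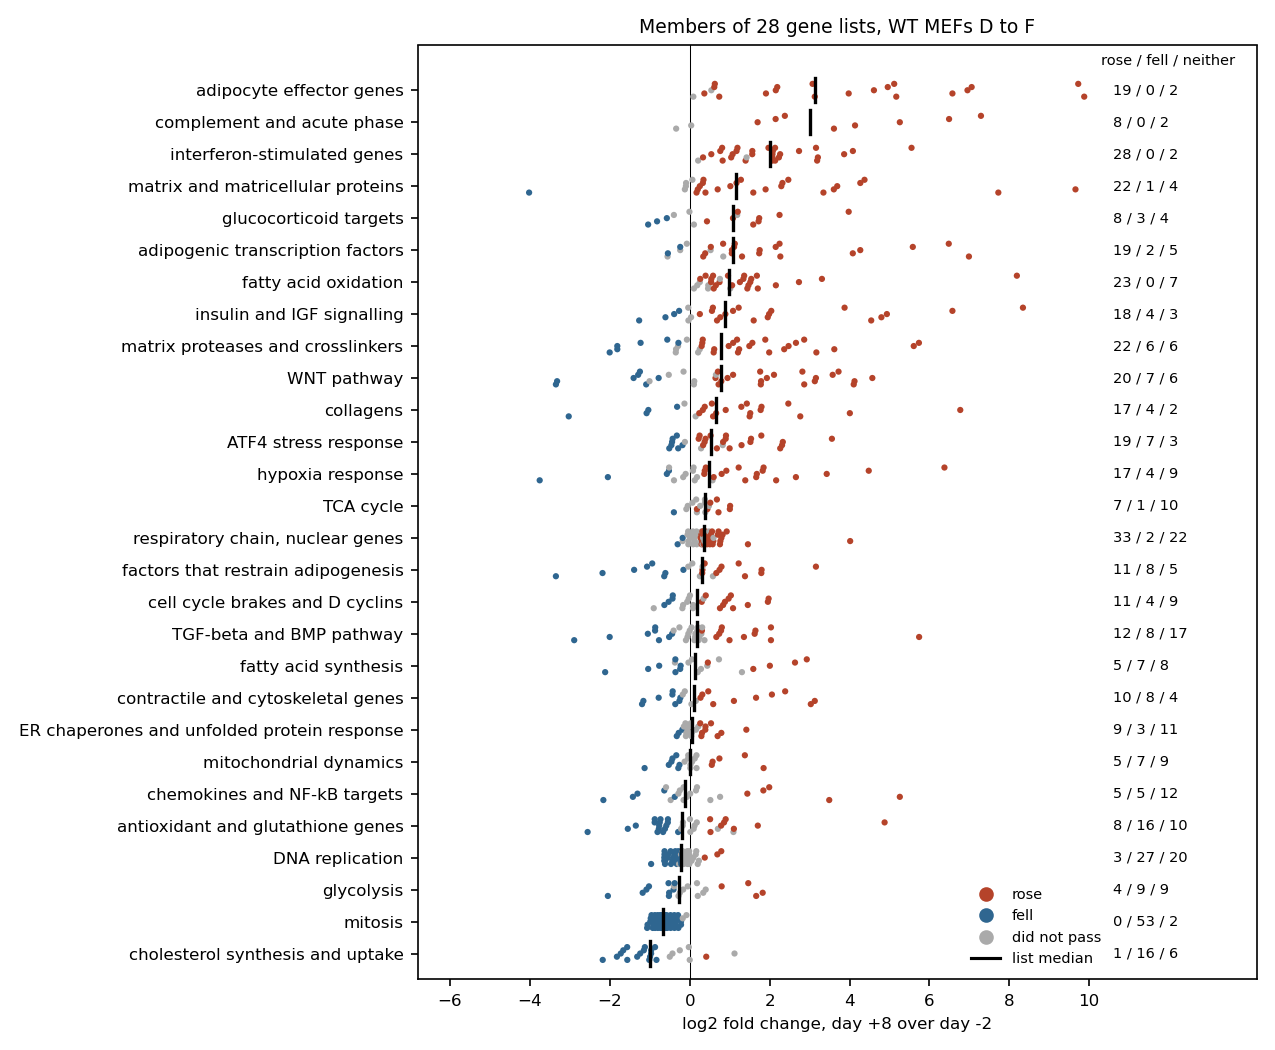
Each point is 1 gene of a list, placed on the horizontal axis by its log2 fold change, day +8 over day -2, in WT MEFs D to F, with the 28 lists that are not cell type markers ordered by their median (black bar) and colours for members that rose, fell or did not pass. Among the lists drawn, adipocyte effector genes stand at the top with a median of 3.13, and mitosis and cholesterol genes at the bottom with medians of -0.68 and -0.99.

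Pparg and Cebpa, which hold the adipocyte state, both rose. Pparg (ENSMUSG00000000440, chromosome 6, 115360951 to 115490399 on GRCm38) had 272, 271 and 407 normalised counts in day +8 libraries D, E and F, against 64.5, 72.8 and 70.1 in day -2 libraries D, E and F. Library F was the highest of day +8, D and E were nearly equal, and all 3 lay above every day -2 library. Its response was 2.15 on the log2 scale, with a standard error of 0.15 and a limma adjusted p of 1.33e-08. Cebpa (ENSMUSG00000034957, chromosome 7, 35119293 to 35121928) had 1051, 879 and 1842 at day +8, against 9.21, 11.2 and 5.68 at day -2, higher by 6.99 on the log2 scale (standard error 0.33, adjusted p = 9.73e-07). The groups were far apart, and F again stood above D and E.

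The early C/EBP factors moved less between day -2 and day +8. No library of this set was taken between these days, so their levels soon after the cocktail at day 0 were not measured. Cebpb averaged 776 ± 35.2 at day +8 and 538 ± 20.2 at day -2 (SD, n = 3 each), with a log2 fold change of 0.53. It did not pass when all 36 libraries of the study were fitted in 1 model (0.48). Cebpd, a partner of Cebpb that glucocorticoid induces, had 485, 482 and 363 at day +8, against 127, 134 and 132 at day -2 (log2 fold change 1.74). In both genes the groups did not overlap, and Cebpd was lowest of day +8 in F, unlike Pparg and Cebpa. Exons of other genes run opposite to 20.7% of the exonic length of Cebpb, and whether counting used strand is not given in the sources used here.

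Of the 28 adipogenic transcription factors listed, 26 were tested, of which 19 rose, 2 fell and 5 did not pass, against 26.3% of all genes that rose, with a median log2 fold change of 1.08. Klf15, a Krüppel-like factor of late adipogenesis, had 177, 167 and 199 at day +8, against 1.02, 1.12 and 0.947 at day -2. With 3 reads over the day -2 group, its reads differed 59.8- to 855-fold (95% counting interval). Nr1h3, the liver X receptor alpha that senses oxysterols, had 195, 137 and 336 at day +8, against 4.09, 1.12 and 6.63 at day -2 (log2 fold change 5.58). Day +8 spread more than 2-fold between E and F, yet remained far above day -2. Ppargc1a, a coactivator of mitochondrial biogenesis, averaged 406 ± 38.3 at day +8 and 24.1 ± 9.65 at day -2 (log2 fold change 4.08), and Klf9, a glucocorticoid-induced Krüppel-like factor, averaged 658 ± 39.8 and 138 ± 11.4 (2.25). Tfe3, a helix-loop-helix activator, fell by 0.55 on the log2 scale, with means of 700 ± 47.3 at day +8 and 1022 ± 27.6 at day -2. Zfp467, a zinc finger factor that favours adipocytes over osteoblasts, did not pass, with 7.57, 31.4 and 41.7 at day +8 and 28.7, 33.6 and 17.99 at day -2, and its groups overlapped.

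**Figure D2:**
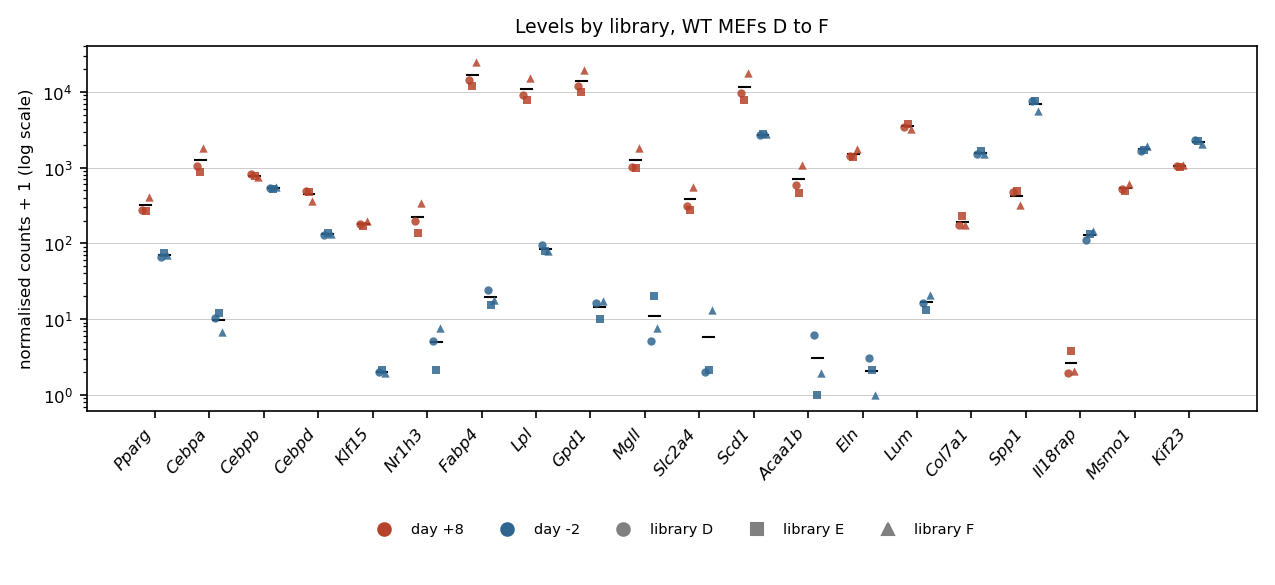
Normalised counts (plus 1, log scale) of 20 genes in each library, day +8 left of day -2, with shapes for libraries D, E and F and bars for group means. Fabp4 stands between 11859 and 24733 at day +8 and between 14.6 and 23.5 at day -2, while Cebpb differs far less, and F is the highest day +8 library for Pparg, Cebpa, Fabp4, Lpl and Gpd1.

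Genes known to hold fibroblasts back from the fat lineage did not move as a block. Of 25 listed, 24 were tested, 11 rose, 8 fell and 5 did not pass, with a median of 0.32. Wnt10b, a WNT ligand that blocks adipogenesis, had 17.97, 26.8 and 19.3 at day +8, against 228, 197 and 248 at day -2, and fell by 3.35 on the log2 scale. Gata2, a zinc finger factor of preadipocytes, fell by 1.39 (mean 86.8 ± 12.1 at day +8 and 228 ± 20.4 at day -2), and Sox9, the chondrocyte regulator, fell by 1.07 (269 ± 42.4 and 562 ± 33.5). For all 3, every day +8 library lay under every day -2 library. Other members of the list rose. Wnt5a, a noncanonical WNT ligand, had 789.9, 771 and 699.8 at day +8, against 73.7, 76.2 and 103 at day -2 (log2 fold change 3.16), Klf2, which represses Pparg, averaged 196 ± 26.8 and 55.3 ± 3.28 (1.80), and Zfp521, a zinc finger factor that opposes adipogenesis, averaged 1082 ± 105 and 414 ± 32.9 (1.38). Zfp521 kept its direction but did not pass with all 36 libraries in 1 model (1.34), and the list then had 5 rises.

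Most tested genes for proteins that store and release fat rose. Of 41 adipocyte effector genes listed, 22 were measured and 21 tested, of which 19 rose, 0 fell and 2 did not pass, with a median log2 fold change of 3.13. The lowest log2 fold change of the list was 0.09, so no tested member was below 0. Adipoq, Cfd, Plin1 and Cd36 are not analysed here. Fabp4 (ENSMUSG00000062515, chromosome 3, 10204088 to 10208576), the fatty acid carrier of adipocytes, had 14224, 11859 and 24733 in day +8 libraries D, E and F, against 23.5, 14.6 and 17.04 at day -2. Its level in F was about that of D and E added together, and day -2 libraries were all low. It rose by 9.73 on the log2 scale, with a standard error of 0.35 and an adjusted p of 1.2e-05.

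Gpd1 (ENSMUSG00000023019, chromosome 15, 99717515 to 99725005), which makes the glycerol backbone of triglyceride, had 11859, 10050 and 19342 at day +8, against 15.4, 8.96 and 16.1 at day -2, higher by 9.88 on the log2 scale (adjusted p = 1.19e-05). A noncoding gene, Gm16537, runs opposite to 13.0% of the Gpd1 exons. Lpl, the lipase that frees fatty acids from lipoproteins, had 9213, 7810 and 15485 at day +8, against 93.1, 77.3 and 78.6 at day -2 (log2 fold change 6.95, adjusted p = 2.18e-05). Mgll, which cleaves the last fatty acid from glycerol during lipolysis, had 1026, 983 and 1816 at day +8, against 4.09, 19.04 and 6.63 at day -2 (log2 fold change 7.06). For all 3 genes F was the highest library of day +8 and the spread within day +8 was small beside the distance to day -2. Angptl4, a secreted inhibitor of lipoprotein lipase, averaged 781 ± 181 at day +8 and 49.3 ± 14.6 at day -2 (log2 fold change 3.98). Slc2a4, the insulin-regulated glucose transporter Glut4, had 314, 279 and 561 at day +8, against 1.02, 1.12 and 12.3 at day -2. Its day -2 reads were mostly in library F, it rose by 6.58 on the log2 scale with a standard error of 0.88 (adjusted p = 0.00190), and without day +8 library F it did not pass at a log2 fold change of 6.27.

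Several of the highest rises lay outside the lipid machinery. Aldh1a1, a retinaldehyde dehydrogenase, had 1315, 1452 and 939 at day +8, against 0, 1.12 and 1.89 at day -2, 3 reads in all, for a ratio of 417 to 5910 by its 95% counting interval. Its close paralogue Aldh1a7 had 378, 387 and 444 at day +8 and 1 read at day -2 (210 to 46388), and reads of the near-identical copies may have been split between them. Both were near absent before induction and plain in every library afterwards. Clca3a1, a secreted regulator of chloride channels with close paralogues, had 369, 403 and 273 at day +8 and 0 reads in all 3 day -2 libraries, at least 340-fold higher against a floor of 3 reads over the group.

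Prss12, a secreted serine protease, had 1724, 1716 and 1564 at day +8, against 5.12, 6.72 and 2.84 at day -2 (log2 fold change 8.20). Dapk1, a calcium-calmodulin kinase, had 453, 412 and 567 at day +8, against 0, 4.48 and 0 (log2 fold change 8.07), Chchd10, a protein of mitochondrial cristae junctions, 1081, 826 and 1584, against 6.14, 4.48 and 0.947 (8.05), and Ephx2, the soluble epoxide hydrolase, 723, 562 and 1150, against 1.02, 4.48 and 5.68 (7.53). Day +8 library F was highest for Dapk1, Chchd10 and Ephx2 but lowest for Prss12 and Clca3a1. Acaa1b, a peroxisomal thiolase with a close paralogue, had 592, 465 and 1069 at day +8, against 5.12, 0 and 0.947 at day -2, a log2 fold change of 8.19 with a standard error of 0.75.

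Steep falls took genes of moderate level to a few reads. Il18rap, the accessory chain of the interleukin 18 receptor, had 0.946, 2.77 and 1.07 at day +8, against 109, 132 and 143 at day -2 (log2 fold change -5.69, standard error 0.33, adjusted p = 7.92e-10), and Ptprn, a phosphatase-like protein of secretory granules, had 1.89, 5.54 and 2.14, against 175, 204 and 169.5 (-5.55). In both genes the day -2 libraries were close to each other, and every day +8 library was near 0. Il1rl1, the interleukin 33 receptor ST2, was abundant before induction, with 256, 263 and 132 at day +8, against 2930, 2983 and 3123 at day -2 (log2 fold change -3.86). Spp1, the secreted phosphoprotein osteopontin, had 479.6, 486 and 316 at day +8, against 7591, 7496 and 5567 at day -2 (log2 fold change -4.02). For both, library F was the lowest of day +8, and the groups were well separated.

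Other falls included Ngef, a guanine nucleotide exchange factor (log2 fold change -4.66), Ces1g, a carboxylesterase (-4.06), Dock8, an exchange factor for Cdc42 (-3.92), Adam8, a membrane metalloprotease (-3.84), and Nfatc2, a calcium-regulated transcription factor (-3.81). Car12, a membrane carbonic anhydrase, averaged 12.9 ± 2.55 at day +8 and 186 ± 24.4 at day -2 (log2 fold change -3.76). Pkp1, a desmosomal protein, averaged 21.5 ± 6.55 and 279 ± 27.3 (log2 fold change -3.68), and Ano1, a calcium-activated chloride channel, 15.5 ± 4.64 and 179.7 ± 7.96 (-3.49). Lrp8, a receptor for apolipoprotein E and reelin, had 53.9, 57.3 and 70.6 at day +8, against 779, 632 and 687 at day -2 (log2 fold change -3.51). The falls named here ran from -5.69 to -3.49.

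Genes of fatty acid synthesis passed in each direction about as often as all genes. Of 22 listed, 20 were tested, 5 rose, 7 fell and 8 did not pass, against 26.3% and 27.2% of all genes that rose and fell, with a median of 0.13 (0.07 without day +8 library F). Acacb, the acetyl-CoA carboxylase of the mitochondrial surface, had 255, 192 and 385 at day +8, against 32.7, 33.6 and 35.98 at day -2 (log2 fold change 2.93), and Pcx, pyruvate carboxylase, had 4819, 4047 and 8112, against 808, 789.6 and 1031 (2.64). Scd1, a desaturase that makes oleate, had 9604, 7767 and 17534 at day +8, against 2679, 2741 and 2749 at day -2, higher by 2.01 on the log2 scale with a standard error of 0.34 (adjusted p = 0.00654). The Scd1 groups did not overlap, but F held about as much as D and E together. Its paralogue Scd2 went the other way, with 10170, 9656 and 14923 at day +8, against 23151, 23557 and 23384 at day -2 (log2 fold change -1.04, adjusted p = 0.00642). Elovl6, which lengthens palmitate, had 366, 305 and 340.3 at day +8, against 1488, 1417 and 1481 at day -2 (log2 fold change -2.12), and Acly, the source of cytosolic acetyl-CoA, averaged 3298 ± 477 and 5568 ± 199 (-0.76). Scd1 did not pass with the replicate letter as a block (2.01), nor Scd2 with edgeR (-1.01) or quantile normalisation (-0.87). Neither call held when some single libraries were left out, with log2 fold changes of 1.99 to 2.10 for Scd1 without day +8 D or any day -2 library and of -1.05 to -0.93 for Scd2 without day +8 D or E or any day -2 library. The count of rises in the list was 8 without day +8 library E or F and also with DESeq2.

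Cholesterol synthesis and uptake fell as a group, with 16 of 23 tested members lower, 1 higher and 6 that did not pass, and a median of -0.99, against 27.2% of all genes lower. Msmo1, a sterol demethylase, had 527, 494 and 598 at day +8, against 1680, 1731 and 1949 at day -2, and fell by 1.73 on the log2 scale with a standard error of 0.08 (adjusted p = 2.98e-10). Every day +8 library was far below the lowest day -2 library. Ebp, a sterol isomerase, was the single member that passed as a rise, by 0.41, and it did not pass with all 36 libraries in 1 model (0.37). Insig1 had a log2 fold change of 1.12 but did not pass (limma adjusted p = 0.0122). The list had 2 rises with DESeq2 and without day +8 library E or F.

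Fatty acid oxidation rose, with 23 of 30 tested members higher, 0 lower and 7 that did not pass, a median of 0.99. The least of these 30 values was 0.11, so no tested member was below 0. Acot2, a mitochondrial acyl-CoA thioesterase, had 433, 351 and 424 at day +8, against 46.1, 57.1 and 79.5 at day -2 (log2 fold change 2.73), and Pex11a, which divides peroxisomes, had 326, 300.1 and 474, against 84.9, 72.8 and 82.4 (2.16). Cat, the peroxisomal catalase, had 2077, 1729 and 3227 at day +8, against 669, 750.4 and 665 (log2 fold change 1.70), and did not pass without day -2 library D (1.68) or F (1.67). Without day -2 library F, 14 members of the list passed in place of 23.

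Nuclear genes of the respiratory chain rose more often than they fell, mostly by less than 2-fold. Of 57 tested, 33 rose, 2 fell and 22 did not pass, with a median log2 fold change of 0.35, and 2 of them rose at least 2-fold, Cycs and, by 4.02 on the log2 scale, Cox7a1. Cycs, cytochrome c, had 2411, 2167 and 3708 at day +8, against 1004, 997 and 935 at day -2 (log2 fold change 1.46), Ndufb3, a complex I subunit, had 372, 362 and 514, against 217, 253 and 226 (0.82), and Uqcrq, a complex III subunit, had 1582, 1528 and 2219, against 983, 825 and 964 (0.93). Day +8 library F was the highest in all 3, and D and E alone also lay above day -2. Subunits commonly used as protein markers of their complexes had lower values, but the 3 genes above were named for their large rises. Sdhb of complex II had 1552, 1520 and 1974 at day +8 and 1361, 1332 and 1382 at day -2 (log2 fold change 0.30, limma adjusted p = 0.0166), Ndufb8 of complex I averaged 1074 ± 139 and 1013 ± 59.1 (0.08, adjusted p = 0.425), and Atp5a1 of the ATP synthase averaged 10013 ± 1101 and 12306 ± 143 (-0.30, adjusted p = 0.00322). Uqcrc2 of complex III had a log2 fold change of 0.32 (limma adjusted p = 0.0132). Sdhb and Uqcrc2 lay near the list median of 0.35, and both passed with DESeq2 (0.31 and 0.34) and under some other settings. Without day -2 library D or F, Cycs did not pass (1.48 and 1.42), nor did Uqcrq without day -2 library F (0.96), nor Atp5a1 with quantile normalisation (-0.16), with all 36 libraries in 1 model (-0.35) or without day +8 D or any day -2 library (-0.31 to -0.28). With all 36 libraries in 1 model, 5 members rose and 0 fell, at a median of 0.31.

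The tricarboxylic acid cycle gave 7 rises, 1 fall and 10 members that did not pass among 18, with a median of 0.38. Among all genes 26.3% rose and 27.2% fell. Pdhb, a subunit of pyruvate dehydrogenase, had 1817, 1621 and 2517 at day +8, against 1006, 952 and 945 at day -2 (log2 fold change 1.01), and Idh3a, of isocitrate dehydrogenase, had 2328, 2177 and 3280, against 1321, 1220 and 1277 (1.00). Suclg2, a succinyl-CoA ligase subunit, fell by 0.40 on the log2 scale. The count of rises ranged from 2 to 4 when day -2 library F, D or E was left out, and was 11 without day +8 library F, where the median was 0.22. Pdhb and Idh3a lost their calls among those fits, Pdhb without day -2 D, E or F (0.99 to 1.04) and Idh3a without day -2 E or F (0.97 and 1.01).

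Glycolysis leaned downwards, with 9 of 22 members lower, 4 higher and 9 that did not pass, a median of -0.26. Over all genes 27.2% were lower and 26.3% higher. Pkm, pyruvate kinase, had 10859, 11634 and 10658 at day +8, against 22616, 22585 and 21979 at day -2 (log2 fold change -1.02), and Eno1, enolase, had 4750, 4921 and 5615, against 10965, 11167 and 10207 (-1.08). Slc2a1, the basal glucose transporter Glut1, averaged 716 ± 46.4 at day +8 and 1027 ± 44.9 at day -2 (log2 fold change -0.52), and Gapdh averaged 15035 ± 1427 and 21663 ± 527 (-0.53). All 4 genes were lower in every day +8 library, though Slc2a1 and Gapdh did not pass with all 36 libraries in 1 model (-0.56 and -0.57). The 4 members that rose were Hk2, a hexokinase (log2 fold change 0.80), and the following 3 genes. Pfkp, a phosphofructokinase, averaged 1586 ± 39.4 at day +8 and 578 ± 79.96 at day -2 (log2 fold change 1.47), Pfkfb3, which makes its activator fructose 2,6-bisphosphate, averaged 545 ± 152 and 168 ± 13.1 (1.66), and Pdk1, which inhibits pyruvate dehydrogenase, averaged 662 ± 90.9 and 186 ± 22.2 (1.83). Pfkfb4, an isoform of Pfkfb3, fell instead, with 71.9, 84.95 and 110.2 at day +8, against 359, 405 and 336 at day -2 (log2 fold change -2.05).

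Insulin and IGF signalling rose in 18 of 25 tested members, with 4 lower and 3 that did not pass, a median of 0.89. Insr, the insulin receptor, had 759, 757 and 776 at day +8, against 440, 441 and 467 at day -2 (log2 fold change 0.76, adjusted p = 4.03e-08). Akt2, the kinase isoform of insulin-stimulated glucose uptake, averaged 1822 ± 163 at day +8 and 1216 ± 30.1 at day -2 (log2 fold change 0.58), while Akt1, its growth-linked paralogue, averaged 2924 ± 91.7 and 3515 ± 55.98 (-0.27) and did not pass with all 36 libraries in 1 model (-0.31). The receptor and both kinases moved by less than 2-fold with no overlap of the groups. Of the IGF binding proteins, Igfbp7 did not pass (log2 fold change 0.03), and others moved further. Igfbp4 had 4590, 4654 and 4576 at day +8, against 132, 139 and 183 at day -2 (log2 fold change 4.94), and Igfbp2 had 585, 586 and 402 at day +8, against 3 reads in day -2 library D and 0 in E and F, for a ratio of 177 to 2509 by its 95% counting interval. Igfbp6 fell, with 525, 519 and 424 at day +8, against 1124, 1101 and 1302 (log2 fold change -1.27), and Ide, an insulin-degrading protease, averaged 909.5 ± 25.5 and 1387 ± 41.6 (-0.61).

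Mitosis genes fell together by a modest amount. Of 55 tested, 0 rose, 53 fell and 2 did not pass, with a median log2 fold change of -0.68, and the highest value of the list was -0.08, against 27.2% of all genes that fell. Kif23, a kinesin of the cytokinesis midzone, had 1042, 1031 and 1082 at day +8, against 2340, 2237 and 2040 at day -2 (log2 fold change -1.07, standard error 0.06, adjusted p = 2.52e-10). Espl1, the separase that splits sister chromatids, had 1093, 1034 and 1137, against 2292, 2355 and 2145 (log2 fold change -1.06), and Kif2c, a kinesin that frees microtubule ends, had 926, 856 and 942, against 1838, 1873 and 1691 (-0.99). These were the largest falls of the list, and 2 of 55 passed 2-fold. The day +8 libraries lay close together in each gene, below every day -2 library. Summed over the list, normalised counts were 70544, 71012 and 74912 in D, E and F, against 116646, 114627 and 108079 at day -2.

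Promoters of these genes often carry the cell cycle homology region, read here as TTTGAA on either strand, which DREAM and MuvB complexes use to hold mitotic genes off outside division. In RefSeq promoters of GRCm38.p6, from 250 bases before to 50 after the start, 46 of the 55 members matched and 31 (67.4%) held TTTGAA or its reverse complement TTCAAA, against 20.2% of 27025 genes. Within 50 bases of the start the shares were 28 of 46 (60.9%) and 5.72%. Members with the motif had a median log2 fold change of -0.72 and those without one -0.59, a description with no test. The 6 largest falls with the motif inside 90 bases before to 30 after the start are shown as examples, with the motif in capitals.
Kif23 (chr9:61946770-61946889, minus strand): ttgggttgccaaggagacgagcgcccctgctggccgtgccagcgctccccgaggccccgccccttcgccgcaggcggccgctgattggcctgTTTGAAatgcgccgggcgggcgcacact
Espl1 (chr15:102296203-102296322, plus strand): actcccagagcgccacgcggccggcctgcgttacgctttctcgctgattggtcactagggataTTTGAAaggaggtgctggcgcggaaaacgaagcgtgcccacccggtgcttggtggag
Ccnb2 (chr9:70421525-70421644, minus strand): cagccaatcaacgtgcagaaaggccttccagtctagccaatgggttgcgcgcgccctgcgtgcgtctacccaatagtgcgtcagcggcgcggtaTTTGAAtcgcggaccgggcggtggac
Ttk (chr9:83834599-83834718, plus strand): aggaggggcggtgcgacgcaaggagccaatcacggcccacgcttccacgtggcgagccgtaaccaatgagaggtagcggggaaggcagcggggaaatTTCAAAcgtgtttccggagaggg
Ncapg (chr5:45669835-45669954, plus strand): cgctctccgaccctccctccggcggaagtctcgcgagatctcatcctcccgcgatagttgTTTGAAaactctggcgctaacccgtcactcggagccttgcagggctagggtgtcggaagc
Cdc20 (chr4:118437314-118437433, minus strand): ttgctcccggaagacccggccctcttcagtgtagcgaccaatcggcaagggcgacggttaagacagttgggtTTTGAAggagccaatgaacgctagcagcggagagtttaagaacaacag
The first base of the motif stood 2 bases after the start in Kif23, 4 in Ccnb2 and 7 in Ttk, and 27, 30 and 18 bases before it in Espl1, Ncapg and Cdc20. Ttk holds it as TTCAAA. These genes fell by 1.07 (Kif23), 1.06 (Espl1), 0.96 (Ccnb2, a B-type cyclin), 0.93 (Ttk, a spindle checkpoint kinase), 0.87 (Ncapg, a condensin subunit) and 0.86 (Cdc20, an activator of the anaphase-promoting complex) on the log2 scale. A match of letters is not a bound site.

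**Figure D3:**
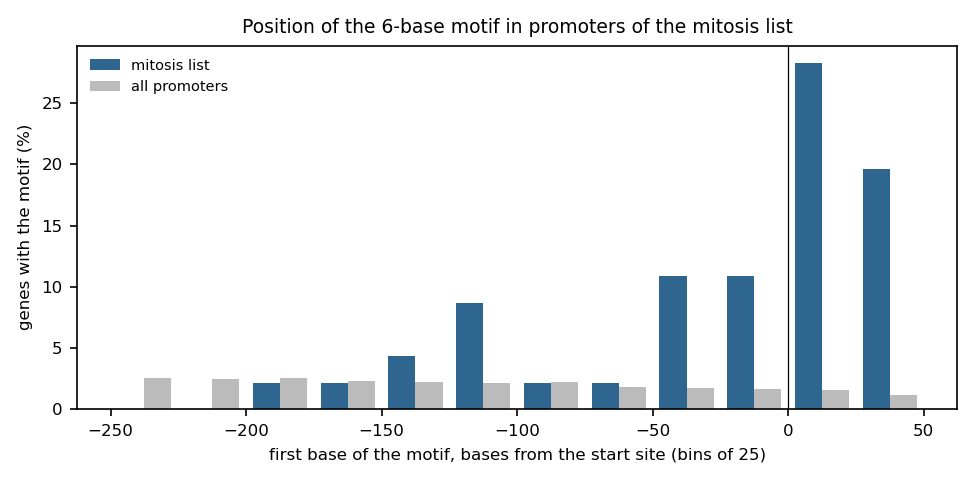
Share of genes (%) whose promoter has the 6-base motif starting in each 25-base bin, by distance in bases from the start site, for 46 mitosis genes (blue) and 27025 genes (grey). The mitosis bars peak just after the start at 28.3%, against 1.54% of all genes in the same bin.

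Of 50 DNA replication genes tested, 27 fell, 3 rose and 20 did not pass, with a median of -0.21 and no member past 2-fold. Mcm10, an initiation factor, had 515, 488 and 484 at day +8, against 1006, 979 and 922 at day -2 (log2 fold change -0.97), Dut, which removes dUTP, had 881, 879.9 and 920.3, against 1427, 1365 and 1379 (-0.64), and Gins1, of the replicative helicase, had 269.6, 265 and 288, against 458, 445 and 381 (-0.64). The members that rose were Chaf1b, a histone chaperone (log2 fold change 0.79), E2f2 (0.69) and cyclin E1, Ccne1 (0.38). E2f2 and Ccne1 did not pass without some single libraries, E2f2 without day -2 D, E or F (0.68 to 0.71) and Ccne1 without day +8 D or F or day -2 D or F (0.29 to 0.38), nor with all 36 libraries in 1 model, where 12 members fell.

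The E2F sites TTTCCCGC and TTTGGCGC, on either strand, were in 15 of 41 matched promoters of the replication list (36.6%) and in 1.8% of all 27025 genes. TTTGGCGC shares its first bases, TTTG, with TTTGAA. The largest falls with such a site in the same window were Hells, a chromatin remodeller (log2 fold change -0.62), Gins3, of the helicase (-0.32), and Mcm3, a helicase subunit (-0.23), shown as examples of the site, which is in capitals.
Hells (chr19:38930900-38931019, plus strand): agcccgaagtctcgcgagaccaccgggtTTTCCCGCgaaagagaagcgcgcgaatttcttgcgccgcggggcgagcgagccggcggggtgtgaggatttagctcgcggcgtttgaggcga
Gins3 (chr8:95633469-95633588, plus strand): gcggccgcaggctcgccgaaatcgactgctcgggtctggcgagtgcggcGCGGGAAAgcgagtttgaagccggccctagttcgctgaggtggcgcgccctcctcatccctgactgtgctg
Mcm3 (chr1:20820283-20820402, minus strand): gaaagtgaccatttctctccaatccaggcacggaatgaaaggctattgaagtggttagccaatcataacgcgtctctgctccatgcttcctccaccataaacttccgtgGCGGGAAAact
The site began 62 bases before the start in Hells and 41 before it in Gins3, and 19 bases after the start in Mcm3. Gins3 and Mcm3 hold it as the reverse complement GCGGGAAA, and the Gins3 window also holds TTTGAA, left in lower case. In the same promoters of 13 adipocyte effector genes, a direct repeat of AGGTCA spaced by 1 base, the form that Pparg and its partner bind, was found in 0, and in 13 of all 27025 genes (0.0481%).

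Brakes of the cell cycle and D cyclins gave 11 rises, 4 falls and 9 members that did not pass among 24, with a median of 0.19. The shares over all genes were 26.3% that rose and 27.2% that fell. Cdkn1a, the CDK inhibitor p21, had 1236, 1150 and 1482 at day +8, against 434, 436 and 539.7 at day -2 (log2 fold change 1.45), and Gadd45a, a stress-induced growth arrest gene, had 556, 623 and 576, against 153, 156 and 136 (1.98). Trp53inp1, a p53-induced protein, averaged 489 ± 29.3 at day +8 and 127 ± 24.2 at day -2 (log2 fold change 1.96). All 3 were higher in every day +8 library, while Trp53 itself fell, with 1668, 1660 and 1524 at day +8, against 2545, 2523 and 2462 at day -2 (log2 fold change -0.63).

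Collagens rose in 17 of 23 tested members, with 4 lower and 2 that did not pass, a median of 0.66. Their summed level was 372016, 380297 and 352446 in day +8 libraries D, E and F, against 218085, 220725 and 238181 at day -2. Col11a1, a fibrillar collagen, had 10271, 10768 and 9804 at day +8, against 595, 587 and 742 at day -2 (log2 fold change 4.01), Col14a1, a fibril-associated collagen, had 290.4, 258 and 290, against 3.07, 1.12 and 0.947 (6.77), and Col8a2, a short-chain collagen, averaged 741 ± 20.2 and 109.6 ± 24.03 (2.77). Col7a1, the anchoring fibril collagen of epithelial basement membranes, fell to 176, 225 and 176 at day +8, against 1516, 1673 and 1510 at day -2 (log2 fold change -3.03). Col18a1, the source of endostatin, fell by 1.04, and Col5a3, a minor fibrillar chain, by 1.08. With all 36 libraries in 1 model 8 collagens rose, and Col5a3 did not pass (-1.12).

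Other matrix proteins rose more widely, in 22 of 27 members, with 1 lower and 4 that did not pass, a median of 1.17. Eln (ENSMUSG00000029675, chromosome 5, 134702593 to 134747323), elastin, had 1417, 1371 and 1742 at day +8, against 2.05, 1.12 and 0 at day -2, where 3 reads in all gave a ratio of 500.4 to 7096 by its 95% counting interval. Lum, the proteoglycan lumican, had 3483, 3817 and 3238 at day +8, against 15.4, 12.3 and 19.9 at day -2 (log2 fold change 7.73, standard error 0.14, adjusted p = 1e-12). Prelp, of the same leucine-rich family, had 555, 530 and 493, against 23.5, 29.1 and 26.5 (log2 fold change 4.27). All 3 were low before induction, at most 29.1 normalised counts, and high in every day +8 library. Lama4, the laminin chain of adipocyte and vessel basement membranes, had 2267, 2186 and 2338 at day +8, against 6.14, 4.48 and 2.84 at day -2 (log2 fold change 8.73). Spp1, described above, was the 1 member that fell.

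Matrix proteases, inhibitors and crosslinkers gave 22 rises, 6 falls and 6 members that did not pass among 34, with a median of 0.79. Mmp3, the stromelysin, had 730.3, 749 and 372 at day +8, against 6.14, 8.96 and 17.99 at day -2 (log2 fold change 5.74), Mmp13, a collagenase, had 312, 336 and 195, against 5.12, 3.36 and 5.68 (5.61), and Mmp2, a gelatinase, had 5298, 5538 and 4109, against 370.4, 393 and 443 (3.62). Library F was the lowest of day +8 in all 3. Mmp9, the other gelatinase, fell to 57.7 ± 14.02 at day +8, against 231 ± 25.3 at day -2 (log2 fold change -2.00), as did Loxl4, a lysyl oxidase (-1.81), and Plaur, the urokinase receptor (-1.81).

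Contractile and cytoskeletal genes moved both ways. Of 22 tested, 10 rose, 8 fell and 4 did not pass, against 26.3% and 27.2% of all genes, with a median of 0.10. Acta2, smooth muscle actin, had 16858, 16758 and 15452 at day +8, against 3881, 4004 and 3894 at day -2 (log2 fold change 2.06), Myl9, a regulatory myosin light chain, had 2335, 2338 and 2167, against 379.6, 411 and 525 (2.39), and Lmod1, a smooth muscle actin nucleator, had 178, 159.7 and 192, against 17.4, 19.04 and 26.5 (3.03). In all 3, day +8 libraries were alike and far above day -2, whereas Cnn1, calponin of smooth muscle, fell by 1.19. Myh9, nonmuscle myosin IIA, averaged 13119 ± 1061 at day +8 and 17685 ± 233 at day -2 (log2 fold change -0.43), Zyx, a focal adhesion protein, averaged 2318 ± 298 and 3953 ± 163 (-0.78), and Ankrd1, a YAP target, averaged 544 ± 66.6 and 1220 ± 179 (-1.16). The count of falls was 5 without day -2 library D or F or with quantile normalisation and 2 with all 36 libraries in 1 model, where Myh9 (-0.48) and Ankrd1 (-1.203) did not pass.

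WNT genes rose in 20 of 33 tested members, with 7 lower and 6 that did not pass, a median of 0.79. By role, the canonical ligands Wnt10a and Wnt10b fell, Wnt10a to 25.5, 20.3 and 16.1 at day +8, against 211, 185 and 243 at day -2 (log2 fold change -3.32). The receptor Fzd4 had 739.8, 709 and 882 at day +8, against 39.9, 21.3 and 36.9 at day -2 (log2 fold change 4.57), and Rspo2, a secreted ligand that keeps receptors on the surface, had 566, 533 and 585, against 27.6, 31.4 and 35.03 (4.13). Nkd2, an intracellular antagonist, averaged 149.8 ± 28.9 at day +8 and 8.90 ± 5.93 at day -2 (log2 fold change 4.11), while Tcf7, a nuclear effector, fell by 1.29. Ligands, receptors and antagonists all appeared among the rises, and both of the steepest falls were canonical ligands.

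The TGF-beta and BMP pathway gave 12 rises, 8 falls and 17 members that did not pass among 37, near the 26.3% and 27.2% of all genes, with a median of 0.19. Of the ligands, Bmp3, which opposes osteogenic BMPs, had 169, 173 and 128 at day +8, against 3.07, 1.12 and 1.89 at day -2 (log2 fold change 5.74), and Bmp4, which commits mesenchymal cells to the fat lineage, had 869, 899 and 763, against 209, 196 and 210.2 (2.03). The secreted BMP antagonist Nog fell by 2.89 and its counterpart Chrd rose by 2.03. The type II receptor Acvr2a averaged 599.5 ± 30.2 at day +8 and 234 ± 26.9 at day -2 (log2 fold change 1.36). Ltbp1, which stores latent TGF-beta in the matrix, fell to 1944, 2079 and 1795 at day +8, against 7848, 7629 and 7819 at day -2 (log2 fold change -2.00), and Inhba, the activin A chain, fell by 0.87 but did not pass with all 36 libraries in 1 model (-0.91).

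Interferon-stimulated genes rose in 28 of 30 tested members, with 0 lower and 2 that did not pass, and a median of 2.02. The lowest of the 30 values was 0.21. Ifi27 had 590.3, 674 and 706 at day +8, against 10.2, 11.2 and 18.9 at day -2 (log2 fold change 5.55, standard error 0.20, adjusted p = 4.23e-11), Mx2, a dynamin-like antiviral GTPase, had 96.5, 196 and 94.2, against 4.09, 6.72 and 8.52 (4.08), and Ifit3b, an RNA-binding antiviral protein with a near-identical copy, had 108, 155 and 94.2, against 4.09, 6.72 and 12.3 (3.87). Library E was the highest of day +8 for Mx2 and Ifit3b and stood above D and F over the list, which summed to 18515, 21747 and 17012 in D, E and F, against 6976, 7047 and 7131 at day -2.

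Of 24 complement and acute phase genes listed, 10 were measured and tested. Of these 8 rose, against 26.3% of all genes, 0 fell and 2 did not pass, with a median of 3.00 (range -0.34 to 7.29). C3, the central component, had 2928, 2980 and 2584 at day +8, against 64.5, 69.4 and 86.2 at day -2 (log2 fold change 5.26, adjusted p = 2.52e-13). C4b had 254, 308 and 208 at day +8 and 2 reads at day -2, a ratio of 105 to 3133 by its 95% counting interval. Day +8 libraries D and E exceeded F for these genes. Chemokines and NF-kB targets passed in each direction no more often than all genes, of which 26.3% rose and 27.2% fell. Among 22 members there were 5 rises, 5 falls and 12 that did not pass, and 8 falls without day +8 library F. Cxcl12, a stromal chemokine, had 16099, 15914 and 13869 at day +8, against 4188, 4260 and 4306 at day -2 (log2 fold change 1.84), Il1rn, the interleukin 1 receptor antagonist, averaged 2699 ± 472 and 982 ± 26.9 (1.44), and Ptgs2, cyclooxygenase 2, fell to 212, 228 and 189, against 1043, 951 and 836 (-2.16).

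Leukocyte markers bear on these lists, since leukocytes carry interferon and complement transcripts. Of 13 markers 5 were measured and summed to 752, 739.6 and 561 in day +8 libraries D, E and F, against 363, 369 and 365 at day -2. Cd74, the invariant chain that interferon also induces, made most of the day +8 sum, with 623, 590 and 416 at day +8, against 79.8, 88.5 and 127 at day -2 (log2 fold change 2.46). Cd14, a lipopolysaccharide coreceptor, fell to 21.8, 15.7 and 8.56, against 117, 117 and 89.95 (log2 fold change -2.81). The macrophage receptor Csf1r had 336 reads at day +8 and 425 at day -2, and the Fc receptor Fcgr3 had 3 and 4. Ptprc is not analysed here, and the part of these markers in the rises was not tested.

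Stress responses moved by branch. ATF4 targets rose in 19 of 29 members, with 7 lower and 3 that did not pass, a median of 0.52, and with 9 rises and 0 falls when all 36 libraries were in 1 model. Atf3 had 152, 169.9 and 183 at day +8, against 27.6, 23.5 and 53.02 at day -2 (log2 fold change 2.33), the pseudokinase Trib3 had 1131, 1138 and 1018, against 202, 197 and 267 (2.31), and Ddit3, the C/EBP inhibitor CHOP, had 1547, 1520 and 1490, against 423, 374 and 531 (1.79). The serine synthesis enzymes of the same list fell instead, Phgdh by 0.44, Psat1 by 0.46 and Psph by 0.51, and none of these 3 falls passed with all 36 libraries (-0.55 to -0.48). ER chaperones and unfolded protein response genes gave 9 rises, 3 falls and 11 members that did not pass among 23, a median of 0.05. Across all genes 26.3% rose and 27.2% fell. Dnajb9, an ER co-chaperone, averaged 333 ± 31.4 at day +8 and 124 ± 8.19 at day -2 (log2 fold change 1.42), while Canx, calnexin, averaged 5112 ± 16.9 and 5813 ± 141 (-0.19), a difference that did not pass with all 36 libraries (-0.23), on the deposited scale (-0.12) or with quantile normalisation (-0.03).

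Antioxidant genes leaned downwards, with 16 of 34 lower, against 27.2% of all genes, and a median of -0.20. Another 8 were higher, near the 26.3% of all genes, and 10 did not pass. Nqo1, a quinone reductase of the NRF2 programme, had 115, 94.2 and 112 at day +8, against 655, 595 and 652 at day -2 (log2 fold change -2.56), Gsta4, a glutathione transferase for lipid aldehydes, had 351, 356 and 353, against 953, 941 and 1242 (-1.55), and Prdx6, a peroxiredoxin, had 409.6, 447 and 396, against 1125, 1057 and 1015 (-1.35). Mgst1, a membrane-bound glutathione transferase, rose to 1384, 1210 and 2340 at day +8, against 46.1, 51.5 and 61.6 at day -2 (log2 fold change 4.88), and Hmox1, heme oxygenase, averaged 1111 ± 20.7 and 518 ± 55.6 (1.11). Without day -2 library F, 5 members of the list rose, and without day +8 library F the median was -0.33.

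Hypoxia-response genes rose in 17 of 30 members, against 26.3% of all genes, with a median of 0.49. A further 4 were lower, against 27.2% of all genes, and 9 did not pass. Vegfa, the angiogenic ligand, had 954, 921 and 1288 at day +8, against 531, 578 and 546 at day -2 (log2 fold change 0.92, adjusted p = 1.41e-04), Adm, adrenomedullin, had 185, 205 and 191, against 7.16, 6.72 and 9.47 (4.48), and Egln3, an oxygen-sensing prolyl hydroxylase, had 284, 259.5 and 600.3, against 55.3, 45.9 and 66.3 (2.66). Selenbp1, a methanethiol oxidase, had 99.3, 95.1 and 233 at day +8 and 2 reads at day -2, a ratio of 55.8 to 1679 by its 95% counting interval. The falls included Car12 and Pfkfb4, given above, and the count of falls was 7 without day +8 library F. Glucocorticoid targets, of which 15 of 20 were measured and tested, gave 8 rises, 3 falls and 4 members that did not pass, a median of 1.08. Besides Angptl4, Klf9 and Cebpd, they held Sgk1, a kinase of sodium transport, which had 527, 509 and 489 at day +8, against 1242, 1111 and 829.5 at day -2 (log2 fold change -1.04) and did not pass without day +8 library F (-1.01).

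Genes of mitochondrial fusion and fission, the subject of the wider study, passed about as often as all genes did. Of 21 tested, 5 rose, 7 fell and 9 did not pass, against 26.3% of all genes that rose and 27.2% that fell, with a median of 0.01 that changed sign when day +8 library E or F or day -2 library F was left out (-0.0656 to -0.0045) and with all 36 libraries in 1 model (-0.03). Mfn1 (ENSMUSG00000027668, chromosome 3, 32529465 to 32579239) had 759, 699 and 830.4 at day +8, against 949, 995 and 940.2 at day -2, with -0.34 on the log2 scale, a standard error of 0.07 and an adjusted p of 3.84e-04, a fall that did not pass with all 36 libraries (-0.38). Mfn2 (ENSMUSG00000029020, chromosome 4, 147873599 to 147904704) had 949, 914 and 1021 at day +8 and 949, 996 and 1012 at day -2 (log2 fold change -0.04, adjusted p = 0.601), and its groups overlapped. Opa1, the inner membrane fusion GTPase, averaged 1133 ± 124 at day +8 and 1116 ± 63.01 at day -2 (log2 fold change 0.02, adjusted p = 0.853). Of the fission genes, Dnm1l, the Drp1 GTPase, averaged 1320 ± 32.5 at day +8 and 1609 ± 43.02 at day -2 (log2 fold change -0.29), and Fis1, its outer membrane adaptor, averaged 749.6 ± 23.3 and 1013 ± 57.8 (-0.43), neither of which passed with all 36 libraries (-0.33 and -0.48). Bnip3, a receptor of mitophagy, showed the largest change of the list, with 599, 689.7 and 1079 at day +8, against 207, 232 and 197 at day -2 (log2 fold change 1.85). Tomm20, an import receptor used as a measure of mitochondrial mass, averaged 1924 ± 93.4 at day +8 and 2307 ± 38.2 at day -2 (log2 fold change -0.26) and also did not pass with all 36 libraries (-0.31).

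The 3 day +8 libraries were not alike in how far lipid genes had gone. Summed over the 22 measured adipocyte effector genes, libraries D, E and F held 59556, 51390 and 95765 normalised counts, against 7812, 7940 and 8012 at day -2. Member by member, F stood above the mean of D and E by a median of 0.74 on the log2 scale for effector genes, 0.52 for fatty acid oxidation, 0.41 for the tricarboxylic acid cycle and 0.31 for the respiratory chain, with a median of -0.000965 over all genes tested. F was lower than D and E for complement and acute phase genes (-0.32), chemokines and NF-kB targets (-0.28), interferon-stimulated genes (-0.28) and matrix proteases (-0.18). It was the highest library for 42.3% and the lowest for 41.3% of the 1408 genes that rose at least 2-fold, against 38.3% and 39.0% of all genes tested. At day -2 the medians for effector genes were -0.03, -0.02 and 0.04 in D, E and F. Those for complement and acute phase genes spread as widely as at day +8, with 0.02, -0.19 and 0.31. No label sets F apart, and what made it differ was not tested. Without it, the effector list had 19 rises and a median of 2.86.

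**Figure D4:**
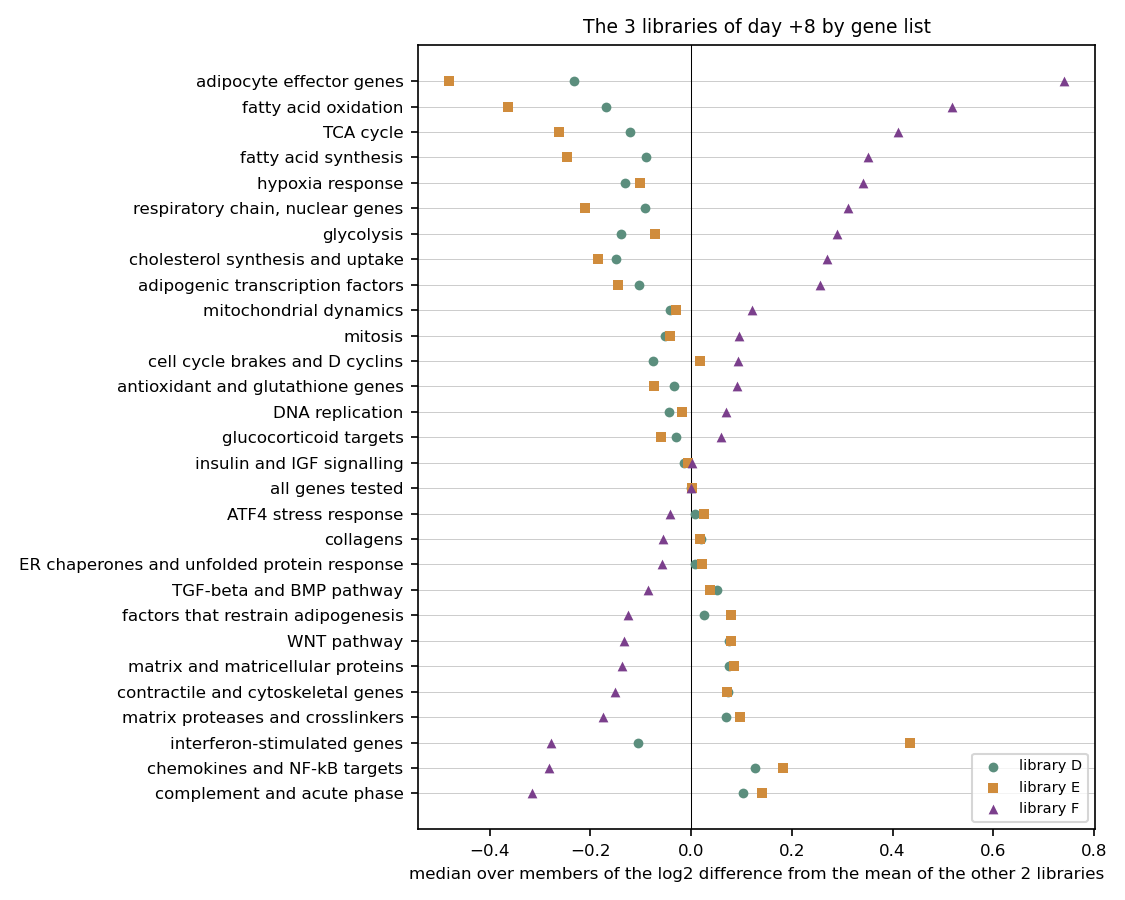
For each gene list, the median over members of the log2 difference of 1 day +8 library from the mean of the other 2, with lists ordered by library F (triangles). F is highest for adipocyte effector genes (0.74) and lowest for complement and acute phase genes (-0.32), E is highest for interferon-stimulated genes (0.43), and all 3 are near 0 over all genes tested.

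The study's other WT set, libraries A to C at the same days, share no library with D to F. In a fit of all 12 libraries scaled together, 3582 genes passed between day +8 and day -2 in A to C, 1705 higher and 1877 lower. The 6845 genes of D to F came from a separate fit of 6 libraries, so the 2 counts do not compare the sets. Libraries A to C had more reads, and their pairs with library C differed most. The chi-square per gene was 8.15, 56.85 and 48.96 for the day +8 pairs A-B, A-C and B-C. It was 1.87, 6.68 and 9.23 for D-E, D-F and E-F. This measure also grows with read depth, so it does not by itself compare the spread of the sets. Of the 6845 genes that passed in D to F, 6379 (93.2%) had the same sign in A to C, and across 12785 genes the 2 sets of log2 fold changes correlated with r = 0.87, a description across genes, which are not independent. Sizes differed. Of 1964 genes changed at least 2-fold in D to F, 1721 (87.6%) had the larger size in D to F, with a median ratio of A to C over D to F of 0.67. Genes chosen for size in D to F are likely to be larger there, so this share is no test.

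Medians of the lists were 3.13 in D to F and 1.91 in A to C for adipocyte effectors, 2.02 and 1.23 for interferon-stimulated genes, 0.99 and 0.43 for fatty acid oxidation, 0.35 and -0.05 for the respiratory chain, and -0.68 and -0.55 for mitosis. Some medians were larger in size in A to C, among them matrix proteins, with 1.17 in D to F and 1.43 in A to C. The others included cholesterol genes (-0.99 and -1.23), glycolysis (-0.26 and -0.57) and the TGF-beta and BMP pathway (0.19 and 0.43). The median of ATF4 targets nearly vanished in A to C (0.52 and 0.006). Those of the tricarboxylic acid cycle (0.38 and -0.12) and of fatty acid synthesis (0.13 and -0.255) changed sign. Pparg and Cebpa had log2 fold changes of 2.16 and 6.99 in D to F and of 1.42 and 5.33 in A to C, differences that did not pass (adjusted p = 0.230 and 0.0469, limma interaction contrast).

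A test of the difference itself, as an interaction in the 12-library fit, found 76 of 13299 genes (0.571%), with a larger or more positive response in D to F for 46 (0.346%) and a smaller or more negative one for 30 (0.226%), while 2377 had an unadjusted p under 0.05. The balance was not firm, with 40 higher and 39 lower under weights by set, 39 and 49 without A to C day +8 library C, and 26 and 6 without D to F day -2 library E. The adipocyte effectors held 4 calls among 21 members, all higher in D to F, and the TGF-beta and BMP pathway held 1 higher and 3 lower among 37. Fabp4 had 14386, 11985 and 24938 at day +8 in D, E and F and 5515, 4464 and 5749 in A, B and C, and 23.7, 14.7 and 17.2 at day -2 in D, E and F and 37.6, 41.03 and 33.1 in A, B and C. Its response was larger in D to F by 2.63 on the log2 scale (standard error 0.34, adjusted p = 0.00237), though not past the threshold with edgeR (2.68) or with weights estimated by set (2.63). Lama4 differed by 3.15 (0.00197), with log2 fold changes of 8.74 in D to F and 5.59 in A to C, Bmp3 by 3.27 (5.75 and 2.48), and Dpt, the matrix protein dermatopontin, by 1.46 (2.17 and 0.71). Lama4 did not pass with the replicate letter as a block (3.15), nor Dpt with all 36 libraries in 1 model (1.44). Bmp3 did not pass with that block (3.27), edgeR (3.75), a pseudocount of 5 (2.11) or day +8 library D left out (3.21).

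Socs2, an inhibitor of growth hormone signalling, differed most among the genes named here that have no opposite-strand exon. It had 834, 854 and 747 at day +8 in D, E and F, against 4.13, 3.38 and 4.77 at day -2, and 689, 743 and 764 at day +8 in A, B and C, against 102, 91.6 and 339 at day -2. Both sets rose, D to F by 7.33 and A to C by 2.31, and the difference was 5.02 (adjusted p = 5.80e-04), which did not pass with edgeR (5.61). Differences below 0 included Ltbp2, a latent TGF-beta binding protein, which fell in D to F (-0.86) and had a log2 fold change of 0.90 in A to C (difference -1.76, adjusted p = 9.02e-05). With all 36 libraries in 1 model the Ltbp2 difference did not pass (-1.78).

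Of the 76 genes, 39 (51.3%) had exons that overlap another gene on the opposite strand, against 33.1% of all genes tested. Gm16537 (ENSMUSG00000089671, chromosome 15, 99715543 to 99724474), a noncoding gene opposite Gpd1 over 54.7% of its exons, had 4185, 3574 and 7156 at day +8 and 4.13, 3.38 and 8.59 at day -2 in D, E and F, and 1.42, 1.45 and 0 at day +8 and 2.09, 0 and 0.566 at day -2 in A, B and C. Gm16537 was high in the same libraries as Gpd1 in D to F and stayed at a few counts in A to C, although Gpd1 itself rose in both (9.88 and 8.66). The same form was seen for 4732471J01Rik opposite the lipase gene Lipe (difference 4.12), Gm15441 opposite Txnip (3.75), Dlec1 opposite Acaa1b (3.78) and, downwards, LTO1 opposite the cyclin gene Ccnd1 (-2.39). Whether the library kits or the counting kept strand, and whether both sets were handled alike, is not given in the sources used here, so reads of a gene and of its opposite partner cannot be told apart for these genes. Without genes that overlap on the opposite strand, 34 genes differed.

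**Figure D5:**
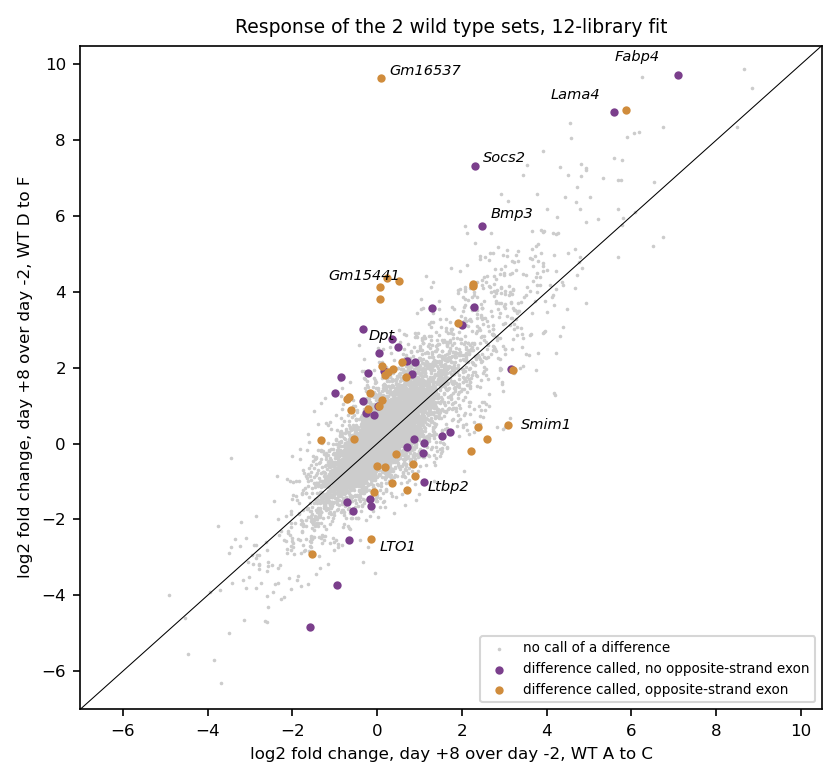
Log2 fold change, day +8 over day -2, of 13299 genes in D to F (vertical) and A to C (horizontal) from the 12-library fit, with the line of equal response. Coloured points are the 76 genes whose response differed, 39 of them (orange) with an opposite-strand exon, and Gm16537, Fabp4, Lama4 and Socs2 stand above the line.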

How the data were processed

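RNA of WT MEFs was sequenced as poly-A-selected, paired-end libraries, and only RNA of high integrity was used. Per the labels, the authors trimmed reads with cutadapt, aligned them to GRCm38 with STAR, handled alignments with SAMtools and made gene counts with featureCounts, with versions and strand setting not given in the sources used here. The deposited values are a signal, gene counts that the authors divided by 1 factor per library, with 6 blocks of libraries scaled apart. Whole reads were recovered from them, with 100% of values whole within 0.01, so intervals and floors cover counting error only. Of 16623 table lines, 19 symbols filled 64 to 729 identical lines each and were merged, Ddit3, Aldoa and Nnt among them, which left 14761 symbols. Of these, 99.77% matched 1 gene model, used for identifiers, GRCm38 coordinates and opposite-strand overlap. The 6 libraries were rescaled together by TMM (edgeR 4.0.16), and limma 3.58.1 (trend, robust, R 4.3.3) was run on log2(normalised count + 1), day +8 minus day -2, over genes that reached 10 normalised counts in 3 or more libraries, with Benjamini-Hochberg adjusted p under 0.01. A fold change on this scale understates the change of low genes. The difference between WT sets was an interaction contrast in a fit of 12 libraries. Alternatives were pseudocounts of 0.5 and 5, filters, scalings, edgeR, DESeq2 1.42.0 on recovered reads, all 36 libraries in 1 model, a replicate block, a stricter threshold, weights by set, opposite-strand genes left out and each library left out.

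Genes named in the text were up to 15 rises and 15 falls with the largest change, non-overlapping groups and a mean of at least 100 normalised counts in the higher group, up to 3 of each direction per list, the 6 largest differences in response each way, and a fixed set of adipocyte, insulin and mitochondrial genes. Genes outside that rule (Hk2, Cnn1, Nog, Chrd, the genes whose promoters are shown and those of the marker lists) were added after their values were seen. Some genes that the rule names are not reported here. The members and gene lists were chosen with earlier results of these data known, so list counts are descriptions. Scripts were tested on simulated counts with known changes.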

Additional observations from a re-analysis of the deposited data

Results flagged for a closer look

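The response between day +8 and day -2 differed between WT libraries D to F and A to C for 16 named genes, each tested as an interaction term in the 12-library limma fit. The differences in log2 fold change, D to F minus A to C, were 9.53 for Gm16537, 5.02 for Socs2, 4.12 for 4732471J01Rik, 4.07 for Med12l, 3.78 for Dlec1, 3.75 for Gm15441, 3.27 for Bmp3, 3.15 for Lama4, 2.63 for Fabp4 and 1.46 for Dpt. On the other side they were -2.60 for Smim1, -2.39 for LTO1, -1.93 for Fam57b, -1.92 for Gm17690, -1.89 for Prkar1b and -1.755 for Ltbp2.

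Smim1, a small membrane protein of red cells, had log2 fold changes of 0.49 in D to F and 3.08 in A to C, and Fam57b, a ceramide synthase-like protein, 0.44 and 2.37. Prkar1b, a regulatory subunit of protein kinase A, had -2.55 in D to F and -0.66 in A to C, and Gm17690 -1.23 and 0.70. Med12l, a Mediator kinase module subunit, had 4.13 and 0.06. Of the 16 genes, 10 share exonic sequence with a gene of the opposite strand, and the part of the overlap in these differences was not tested. The differences of Fam57b, Prkar1b and Dlec1 did not pass with a replicate block or without some single libraries, and that of Fam57b was -1.11 at a pseudocount of 5.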

How the results depend on the processing

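The 6845 genes changed between day +8 and day -2 became 3653 with all 36 libraries in 1 model and 1070 at an adjusted p under 0.001 with a log2 change over 1.5, and 5831 to 7108 with a library left out. The count of 2-fold changes ran from 1411 (filter at 50) to 2107 (no filter), and with a library left out from 1831 to 1927. Libraries of the same letter showed no shared deviation between the days, with correlations of -0.0268, -0.0247 and -0.0366. Whether the letters paired the cultures by design is not given, and these correlations cannot tell. A replicate block gave 6587 genes and 1941 at least 2-fold. Of 207 named genes tested, 52 lost the call under at least 1 alternative (127 gene and setting pairs, against 3377 with the same call) and 0 changed sign.

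The 76 differences in response became 338 with DESeq2 on recovered reads, 44 with all 36 libraries in 1 model, 33 with the replicate block and 34 when genes with an opposite-strand partner were left out. On the deposited scale, where the sets are not scaled together and the median difference was 0.348, they became 1141 (1107 higher, 34 lower). With a library left out they ran from 28 to 107, over 1.5 times fewer without D to F day +8 D (28) or F (42), day -2 D (30), E (32) or F (43), or A to C day +8 B (46). Of 16 named differences 10 lost the call under some alternative and 0 changed sign.

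Of the list counts, rises in the respiratory chain (33, or 5), TCA cycle (7, or 4), collagens (17, or 8), matrix proteins (22, or 14), ATF4 targets (19, or 9), hypoxia response (17, or 10), cell cycle brakes (11, or 6) and ER chaperones (9, or 2) moved by over 1.5 times with all 36 libraries in 1 model, as did falls in glycolysis (9, or 5), DNA replication (27, or 12), fatty acid synthesis (7, or 4), WNT (7, or 4), TGF-beta and BMP (8, or 2) and mitochondrial dynamics (7, or 2) genes. The median of chemokines and NF-kB targets was 0.0181 without day +8 library F and -0.11 with it. Genes with few reads at day -2 limit fold changes to the counting intervals given.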

Other observations

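Of 15 listed markers of brown and beige adipocytes, only 8 were measured and tested. Of these 7 rose, 0 fell and 1 did not pass, against 26.3% of all genes that rose. Dio2, Cox7a1 and Ppara averaged 3.09, 2.09 and 4.15 at day -2. They thus met the filter of 10 normalised counts in 3 libraries through day +8, so the count of rises is no test. Their median log2 fold change was 3.53 and the lowest value 0.04. Ebf2, Ppargc1a, Ppara and Cox7a1 are also members of lists described above, so these rises are not particular to brown or beige cells. Ucp1 is not analysed here. Dio2, the deiodinase that activates thyroid hormone in brown fat, averaged 138.6 at day +8 and 3.09 at day -2, and Kcnk3, a potassium channel of brown and beige adipocytes, averaged 179 and 12.0. Cox7a1, a respiratory subunit of brown fat and muscle, averaged 51.9 at day +8 and 2.09 at day -2, and Ebf2, a factor of brown precursors, 58.2 and 11.2. Lhx8, a homeobox gene used as a brown marker, averaged 409 at day +8 and 301 at day -2. Day +8 library F stood above the mean of D and E by a median of 0.45 on the log2 scale over this list.

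Markers of other mesenchymal fates moved both ways. Alpl, the alkaline phosphatase of osteoblasts, averaged 115 at day +8 and 7.58 at day -2, while Runx2, the osteoblast regulator, averaged 459 and 702, and Phex, a protease of mineralising cells, 43.0 and 82.4. Of fibroblast and progenitor markers, Pdgfra averaged 2808 at day +8 and 593 at day -2 and Nt5e 334 and 24.1, while Cd34 averaged 936 and 2721 and Cd44 713 and 2036. Msln, the mesothelial surface protein, averaged 249 at day +8 and 1325 at day -2.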
